A study of Mus musculus with 48 samples.

Results

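The response of the PWK/PhJ tibia to a cast was measured in 6 of the 48 RNA-seq libraries of the series, chosen by the strain and the limb given in the labels. PWK/PhJ is an inbred strain derived from wild house mice of the subspecies musculus. The 3 mice were males aged 19 weeks, and each gave its left tibial metaphysis, after the left hindlimb had been held in a cast for 3 weeks (the immobilized limb), and its uncast right tibial metaphysis (the control limb). The labels give no transgene, allele or drug, and they number these mice 3, 4 and 6, a number that ties both limbs to 1 animal. CAST/EiJ and WSB/EiJ, also derived from wild mice, went through the same design, as did the inbred strains NZO/HlLtJ, NOD/ShiLtJ, C57BL/6J, A/J and 129S1/SvImJ. These 7 strains serve here for comparison. The cast was on the left in all mice, so an effect of side and an effect of the cast cannot be told apart.

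The metaphysis is the flared end of a long bone, where trabecular bone and marrow lie next to the growth plate. Osteoblasts there make type I collagen, whose chains are hydroxylated, folded and checked by a set of enzymes and chaperones in the endoplasmic reticulum before the protein is secreted, trimmed and crosslinked. Bone is known to respond to loss of load by lower formation and higher resorption, and marrow cells of the same piece of tissue carry programmes of their own, among them the genes induced by interferon as part of the defence against viruses. Heat shock proteins and their co-chaperones, which fold client proteins with HSP90 and HSP70, are induced by the heat shock factor HSF1.

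The 6 libraries held 5253408 to 7631576 counts, the lowest being the immobilized limb of mouse 3. Markers of bone and marrow were present in each: Col1a1, the main collagen chain of bone, measured 8446, 2258 and 7432 CPM (counts scaled to the size of the library) in the control limbs of mice 3, 4 and 6 and 25546, 13089 and 19496 in their immobilized limbs, and the adult beta-globin Hbb-bs was between 19766 and 52607 in all 6. This order of mice is kept below. The mice did not respond alike. Over 16882 genes tested, the SD of the log2 difference between the limbs of a mouse was 0.996, 0.725 and 0.670. The Pearson correlation of these differences across genes was 0.37 between mice 3 and 4, -0.0029 between mice 3 and 6 and -0.09 between mice 4 and 6, given as descriptions since genes are not independent replicates. The control limb of mouse 4 stood apart by its low bone content: 25 markers of osteoblasts and bone matrix summed to 9882 CPM there, against 30650 and 27468 in the other controls and 47502 to 83740 in the immobilized limbs. The immobilized limb of mouse 3 stood apart by low marrow markers, with 16 neutrophil markers at 14150 CPM against 20474 to 31343 in the other 5 limbs. RNA was taken from whole tissue, so fewer cells of a type and less RNA per cell cannot be told apart in anything that follows.

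In the immobilized limb 6 genes rose and 9 fell at a false discovery rate (FDR) of 0.05, which is 0.0889% of the genes tested (0.0355% higher and 0.0533% lower). The genes that rose were Gpx7, C1qtnf6, Rab11fip4, H1f0, C1qtnf1 and Prdx4, and those that fell were Oas2, Gm9531, Isg15, Ppid, Spg11, Taf15, Chordc1, Pnn and Rbm6. All 15 moved in 1 direction in 3 of 3 mice, and for 14 of them the groups did not overlap, Prdx4 being the exception. Of all genes tested, 29.9% moved 1 way in 3 of 3 mice and 12.5% had groups without overlap. An unadjusted p under 0.05 was reached by 2066 genes, 1251 higher (7.41%) and 815 lower (4.83%). The test was edgeR's quasi-likelihood test with a term for each mouse, fitted over 44 libraries, and changes below are its log2 values for the immobilized limb relative to the control limb, each with its standard error (SE).

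The number of calls changed when 1 mouse was left out, while all 15 genes kept their direction in each such fit. C1qtnf6, at 1.88 with all 3 mice, gave 1.76, 1.79 and 2.07 without mice 3, 4 and 6. Gm9531 moved more, from -1.65 to -1.13, -1.74 and -2.16 in the same order. These fits had 2 PWK/PhJ mice in place of 3. The part of the smaller sample in the counts that follow was not tested. Without mouse 3 there were 2 genes past the FDR (0.0119%), Ppid and H1f0, each with an FDR of 0.0202. Without mouse 4 there were 0, with 1496 at an unadjusted p under 0.05, and without mouse 6 there were 212 (1.26%), among them 14 of the 15. Of the 15, the lowest FDR without mouse 4 was 0.0606, for Ppid and for Rab11fip4. With the terms for mice removed, 9 genes passed and 6 of them were among the 15: Ppid, H1f0, Rab11fip4, Rbm6, Spg11 and Chordc1. DESeq2 with the paired model called 152 genes (0.9%), 109 higher (0.646%) and 43 lower (0.255%), including all 15.

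**Figure D1:**
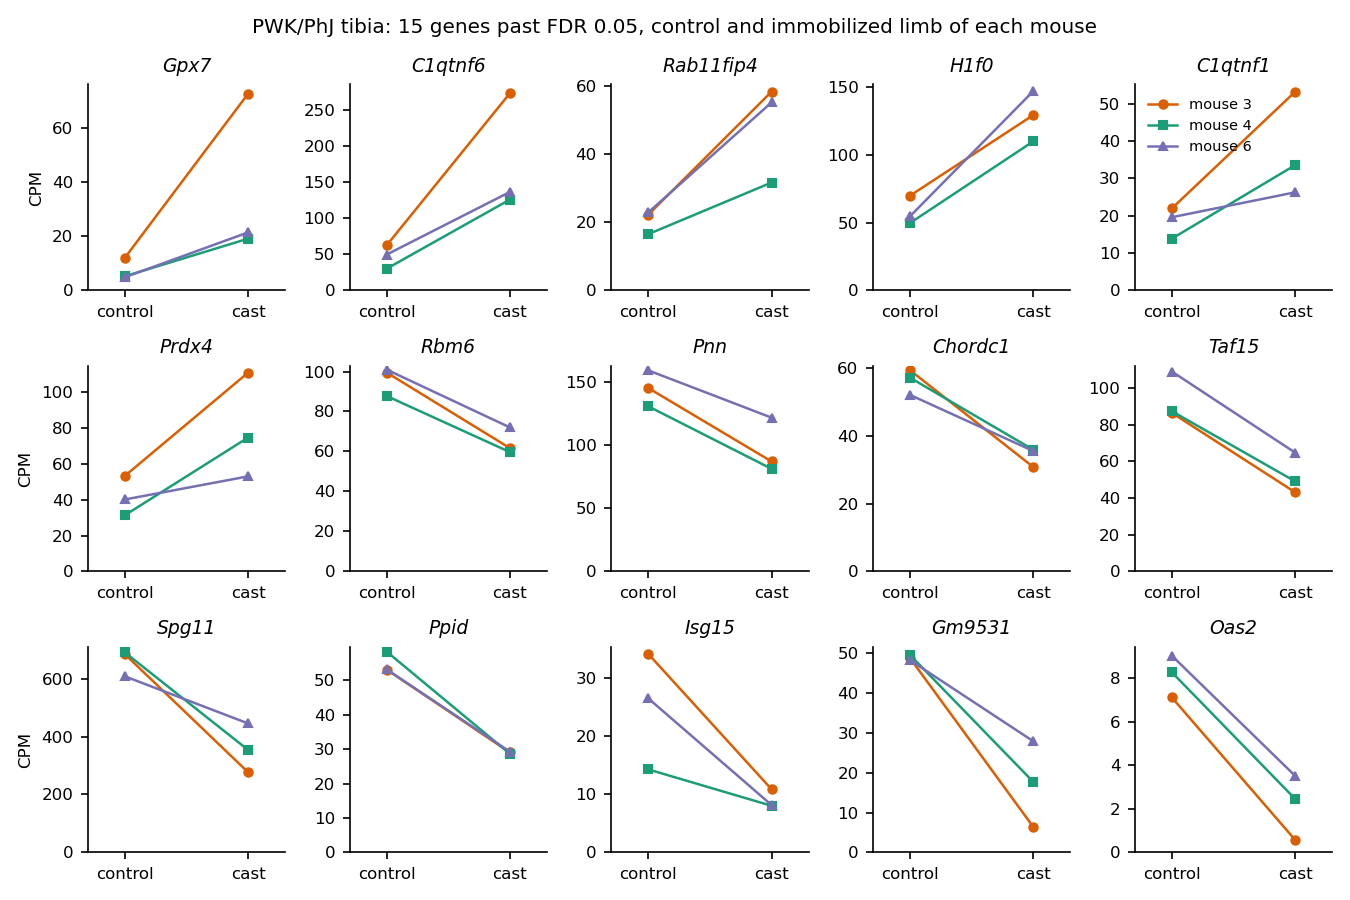
Each panel shows 1 of the 15 genes past FDR 0.05, with CPM on a linear axis from 0 for the control and the immobilized (cast) limb, and a line joins the limbs of each mouse. All 3 lines of every panel slope the same way, and for Ppid the immobilized limbs lie between 28.6 and 29.3 CPM.

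Enzymes that act on new proteins in the endoplasmic reticulum were among the genes that rose. Gpx7, a peroxidase of that compartment (chr4:108400390-108406961, minus strand, mm10), measured 12.1, 5.23 and 4.87 CPM in the control limbs and 72.5, 19.1 and 21.4 in the immobilized limbs. Every immobilized limb was above every control limb, and mouse 3 was the highest in both. The mean rose from 7.39 ± 4.06 to 37.7 ± 30.2 CPM (SD, n = 3), a log2 change of 2.21 ± 0.38 (FDR 0.0428, 0.712 without mouse 3 and 0.20 without mouse 4). Prdx4, the peroxiredoxin of the same compartment (chrX:155323918-155340754, minus strand), measured 53.4, 31.4 and 40.2 CPM in the control limbs and 111, 74.8 and 53.1 in the immobilized limbs. Its groups overlapped, since the immobilized limb of mouse 6 lay below the control limb of mouse 3, although each mouse had more in the cast limb. Prdx4 rose by 0.90 ± 0.17 (FDR 0.0433, 0.712 without mouse 3 and 0.403 without mouse 4). Among 22 genes of peroxidases and oxidative defence these were the members that passed, and the list as a whole had a median of -0.04 against -0.000177 over all genes tested. Sod3, the secreted superoxide dismutase, measured 8.51, 2.80 and 8.48 CPM in the control limbs and 45.5, 18.8 and 6.5 in the immobilized limbs (1.63 ± 0.52, FDR 0.22), with mouse 6 going the other way.

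The enzymes and chaperones of collagen processing lay higher in the immobilized limb as a list. Of 32 tested members 1 passed the FDR, Gpx7, already counted in the peroxidase list. A positive change with an unadjusted p under 0.05 was found in 23 (71.9% of the list, against 7.41% of all genes tested) and a negative one in 0. All gene lists here were chosen with earlier results of these data known, so shares against all genes are descriptions and not tests. For 18 of the 32 every immobilized limb was above every control limb, against 6.45% of all genes, and 25 were higher in 3 of 3 mice, against 13.9%. For 1 of the 32 every immobilized limb was below every control limb, against 6.09% of all genes. The median change was 1.12, and within mice it was 1.37, 1.23 and 0.54. The members with the lowest p after Gpx7 did not pass the FDR. Adamts2, the protease that removes the N-terminal propeptide of procollagen, measured 130, 76.6 and 134 CPM in the control limbs and 293, 218 and 210 in the immobilized limbs, without overlap (1.11 ± 0.24, FDR 0.106). Fkbp10, a prolyl isomerase that assists collagen folding, measured 83.6, 34.7 and 63.0 CPM against 358, 128 and 138 (1.71 ± 0.40, FDR 0.135). Plod1, a lysyl hydroxylase, gave 0.79 ± 0.20 (FDR 0.161), and Pcolce, which enhances removal of the C-terminal propeptide, gave 1.33 ± 0.35 (FDR 0.167). In all 4 the groups did not overlap, and the immobilized limb of mouse 3 was the highest library. Without mouse 3 the median of the list was 0.84, with 13 of 32 positive at an unadjusted p under 0.05 (2.82% of all genes), and DESeq2 called 11 of the 32.

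**Figure D2:**
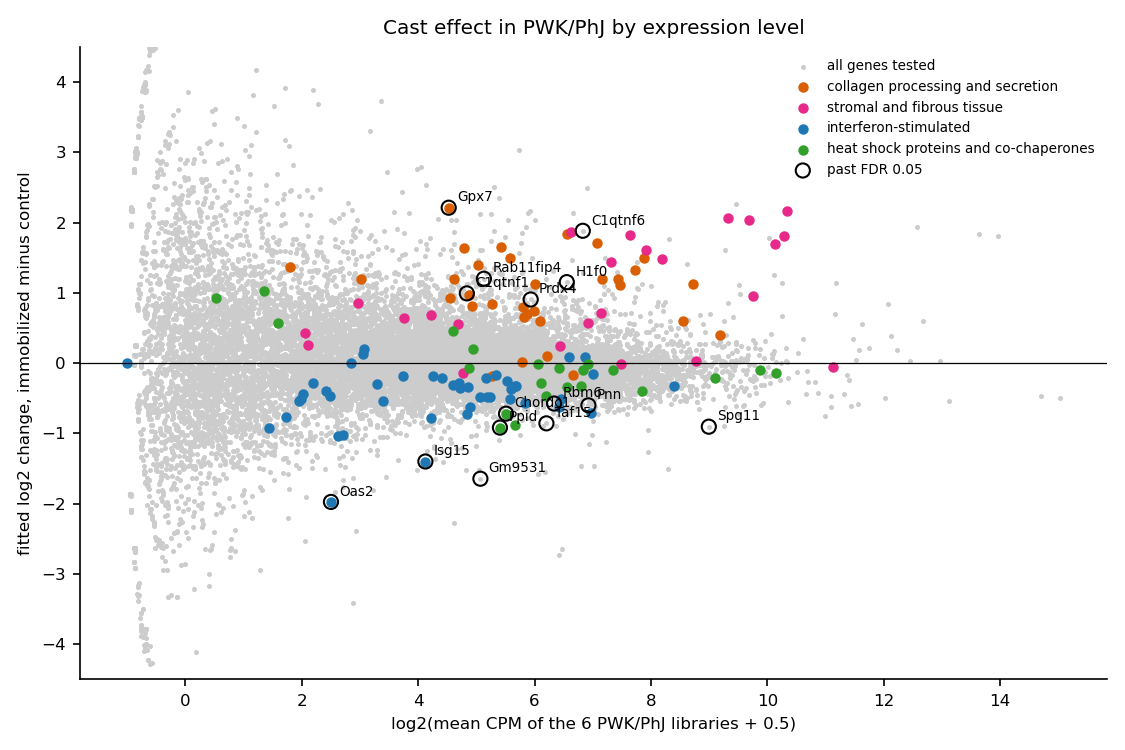
Each point is 1 gene tested, with its mean level over the 6 PWK/PhJ libraries as log2(CPM + 0.5) on the horizontal axis and the fitted log2 change on the vertical axis, and 87 genes lie outside the range drawn. Collagen processing (orange) and stromal genes (pink) lie mostly above 0, interferon-stimulated genes (blue) mostly below, and circles mark the 15 genes past FDR 0.05.

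Genes of the bone matrix and of fibrous stroma were also higher in many libraries, with none past the FDR in the main test. In the osteoblast and bone matrix list 10 of 25 members had a positive change with an unadjusted p under 0.05 and 0 a negative one, against 7.41% of all genes, and the median was 0.88. In 8 members the immobilized limbs lay above the control limbs without overlap, against 6.45% of all genes. Without mouse 3 the count at that p was 5 of 25 (2.82% of all genes) and the median 0.76. DESeq2 called 3 of the 25 higher, against 0.646% of all genes. A paired fit of the 6 PWK/PhJ libraries alone called 3 of 23 higher, where 9 of 13913 genes passed. Phospho1 was 1 of these (FDR 0.0469). Sparc, the collagen-binding glycoprotein osteonectin, measured 4264, 1036 and 3056 CPM in the control limbs and 12591, 7072 and 8493 in the immobilized limbs (1.93 ± 0.48, FDR 0.161). Phospho1, a phosphatase that starts mineral deposition, measured 51.5, 26.7 and 20.4 CPM against 128, 70.9 and 69.6 (1.49 ± 0.38, FDR 0.165). Both had groups without overlap, as did Col1a1, whose values are given above (1.84 ± 0.56, FDR 0.203). The control limb of mouse 4, the lowest for Sparc and Col1a1, had the low bone marker sum described above. Leaving that mouse out gave a list median of 0.63, with 5 of 25 positive at an unadjusted p under 0.05 (4.82% of all genes), and its part in the result was not tested further. The higher values did not extend to every member: Runx2, the transcription factor that commits cells to the osteoblast lineage, gave 0.08 ± 0.25 (FDR 0.929) and Sost, the Wnt inhibitor made by osteocytes, gave -0.71 ± 0.74 (FDR 0.72).

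In the stromal and fibrous list 14 of 24 members had a positive change with an unadjusted p under 0.05, 0 a negative one, and the median was 0.79, while 7.41% of all genes had such a positive change. Fn1, fibronectin, measured 174, 188 and 214 CPM in the control limbs and 3553, 363 and 461 in the immobilized limbs (2.03 ± 0.52, FDR 0.165). Each immobilized limb was above all controls, and mouse 3 was far above the rest. Dcn, the collagen-binding proteoglycan decorin, measured 710, 256 and 515 CPM against 3270, 953 and 1001 (1.69 ± 0.44, FDR 0.165). The collagen VI chains Col6a1 (1.61 ± 0.36, FDR 0.13) and Col6a2 (1.82 ± 0.42, FDR 0.135) and the collagen V chain Col5a1 (1.49 ± 0.36, FDR 0.153) also had groups without overlap. Within mice the list median was 1.71, 1.12 and -0.07. In mouse 6 the summed level of the list was 8697 CPM in the immobilized limb against 6578 in the control limb. Without mouse 3 the median over mice was 0.53, with 7 of 24 members positive at that p (2.82% of all genes), and without mouse 4 it was 1.01 with 9 of 24 (4.82%). DESeq2 called 8 of the 24.

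A pair of secreted proteins of the C1q and TNF related family, which share a globular domain with complement C1q, rose. C1qtnf6 (chr15:78523346-78531416, minus strand) measured 62.7, 30.2 and 49.8 CPM in the control limbs and 274, 126 and 137 in the immobilized limbs. The groups lay well apart, the lowest immobilized limb being that of mouse 4 and the highest control limb that of mouse 3. C1qtnf6 rose by 1.88 ± 0.35 (FDR 0.0498, 0.712 without mouse 3 and 0.332 without mouse 4). C1qtnf1 (chr11:118428203-118449963, plus strand) measured 22, 13.9 and 19.6 CPM against 53.2, 33.5 and 26.3, and rose by 0.99 ± 0.18 (FDR 0.0428, 0.75 without mouse 3 and 0.378 without mouse 4). Both genes overlap an antisense gene in the annotation, and the strand setting of the counting is not given in the sources used here. Of the 10 members tested, 4 had a positive change with an unadjusted p under 0.05 (7.41% of all genes), 0 a negative one, and the median was 0.95. Without mouse 3 it was 2 of 10. C1qtnf7 measured 1.86, 2.19 and 0.834 CPM in the control limbs and 9.48, 3.69 and 3.11 in the immobilized limbs (1.64 ± 0.50, FDR 0.199). C1qtnf3 gave 2.79 ± 1.14 (FDR 0.336) with groups that overlapped, and 2.83 (FDR 0.0309) with the 6 PWK/PhJ libraries alone.

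Interferon-stimulated genes lay lower in the immobilized limb, and 2 of them fell. Oas2, a sensor of double-stranded RNA that makes 2'-5' oligoadenylates (chr5:120730333-120749853, minus strand), measured 7.12, 8.28 and 9.04 CPM in the control limbs and 0.58, 2.46 and 3.52 in the immobilized limbs. Every control limb was above every immobilized limb, and the lowest value, that of mouse 3, rested on 3 reads. Oas2 fell by 1.98 ± 0.36 on the log2 scale (FDR 0.0428, 0.712 without mouse 3 and 0.225 without mouse 4). Isg15, a ubiquitin-like protein that is joined to other proteins after interferon exposure (chr4:156199424-156200818, minus strand), measured 34.0, 14.2 and 26.4 CPM against 10.8, 8 and 8.13. Its immobilized limbs were close to each other, while the control limbs spread over 14.2 to 34.0. Isg15 fell by 1.40 ± 0.26 (FDR 0.0498). The call was lost without any 1 mouse, the FDR being 0.75 without mouse 3, 0.177 without mouse 4 and 0.0596 without mouse 6.

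The promoter of Isg15 is shown because the gene fell and because 3 copies of a sequence known to bind interferon-activated factors overlap in it. The 250 bases before the RefSeq start (chr4:156200819-156201068, minus strand, GRCm38.p6) read 5' to 3' as follows, with matches to the core of the interferon-stimulated response element, GAAANNGAAA, in capitals.
Isg15 promoter: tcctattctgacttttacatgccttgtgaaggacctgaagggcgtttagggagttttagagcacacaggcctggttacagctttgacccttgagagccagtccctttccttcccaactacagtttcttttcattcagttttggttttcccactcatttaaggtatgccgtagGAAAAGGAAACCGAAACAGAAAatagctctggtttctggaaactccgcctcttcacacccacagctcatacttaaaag
The first match begins 78 bases before the start. Searched on both strands over 250 bases before to 50 after the start, as GAAANNGAAA or TTTCNNTTTC and counting overlapping copies, the core was found in 3.99% of 27025 genes with a promoter sequence. It was found in 16 of the 33 genes of the interferon-stimulated list with such a sequence (48.5%), and in 5 of the 11 whose change was negative with an unadjusted p under 0.05, namely Ddx58, Isg15, Oas3, Stat2 and Trim30a. Of the 15 genes past the FDR, 10 had a promoter sequence, and the core was in those of Isg15 and Taf15. A match describes the letters and not binding.

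In the interferon-stimulated list as a whole 17 of 46 members had a negative change with an unadjusted p under 0.05 (37% of the list, against 4.83% of all genes) and 0 a positive one. For 14 of the 46 every immobilized limb was below every control limb, against 6.09% of all genes, and 24 were lower in 3 of 3 mice, against 16%. The median was -0.38, and within mice it was -0.80, -0.25 and -0.22. Trim25, a ubiquitin ligase that activates the RNA sensor RIG-I, measured 100, 100 and 104 CPM in the control limbs and 43.9, 69.4 and 91.3 in the immobilized limbs (-0.63 ± 0.14, FDR 0.129). Zbp1, a sensor of Z-form nucleic acids, measured 8.36, 8.52 and 7.23 CPM against 2.90, 5.54 and 3.52 (-1.03 ± 0.26, FDR 0.165). Ddx58, which encodes RIG-I, measured 42.1, 41.6 and 46.9 CPM against 31.3, 27.8 and 34.0 (-0.49 ± 0.15, FDR 0.196). In these 3 the groups did not overlap. Without mouse 3 the list median was -0.24, with 6 of 46 negative at an unadjusted p under 0.05 (2.02% of all genes).

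Upstream of these genes, the interferons, their receptors and the transducing proteins gave 0 genes past the FDR among 18 tested, 2 with a negative change at an unadjusted p under 0.05, and a median of -0.08. Over all genes 4.83% had such a negative change. Within mice the median was -0.24, -0.12 and 0.13. Without mouse 3 it was -0.0087, with 0 of 18 negative at that p (2.02% of all genes). The ligands Ifna4, Ifnb1, Ifng, Ifnk and Ifnl2 did not pass the filter on low counts. Ifnlr1, a receptor chain for interferon lambda that was named after its values were seen, measured 19.5, 15.8 and 16.7 CPM in the control limbs and 4.26, 6.31 and 9.75 in the immobilized limbs (-1.38 ± 0.43, FDR 0.205). Plasmacytoid dendritic cells, a main source of type I interferon, had 13 markers with a median of -0.22 and a summed level of 408, 437 and 351 CPM in the control limbs and 390, 438 and 339 in the immobilized limbs. Their marker Siglech measured 13.6, 16.2 and 14.0 CPM against 13.2, 12 and 11.5 (-0.26 ± 0.45, FDR 0.842). Markers of neutrophils (median -0.58), B cells (-0.52) and T and NK cells (-0.59) also had negative medians. At an unadjusted p under 0.05, 1 of 16, 0 of 17 and 1 of 15 members were lower, against 4.83% of all genes. Without mouse 3 the medians were -0.30, -0.38 and -0.34. The B cell sum of mouse 4 was higher in the cast limb, at 2431 against 2313 CPM, and those of mice 3 and 6 were lower. The part of cell content in the result was not tested.

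Of 22 genes of heat shock proteins and co-chaperones 2 fell, Ppid and Chordc1, both partners of HSP90. Ppid, the cyclophilin co-chaperone Cyp40 (chr3:79591342-79603650, plus strand), measured 53.1, 58.3 and 53.1 CPM in the control limbs and 29.0, 28.6 and 29.3 in the immobilized limbs. The spread within each group was small, 54.8 ± 3.00 against 29.0 ± 0.32 CPM (SD, n = 3), and the 3 immobilized limbs had nearly the same level. Ppid fell by 0.92 ± 0.11 and had the lowest FDR of all genes, 0.00191 (0.0202 without mouse 3, 0.0606 without mouse 4 and 0.00961 without mouse 6). Chordc1, a zinc-binding protein that binds HSP90 (chr9:18292125-18317442, plus strand), measured 59.3, 57.1 and 52.0 CPM against 30.8, 35.9 and 35.5. Its groups were also tight and apart, and it fell by 0.72 ± 0.13 (FDR 0.0428, 0.712 without mouse 3 and 0.204 without mouse 4). Hsph1, the HSP110 exchange factor of HSP70, measured 61.6, 61.8 and 70.2 CPM against 27.3, 42.5 and 36.4, without overlap (-0.88 ± 0.20, FDR 0.123). Hspd1, the mitochondrial chaperonin HSP60, measured 260, 246 and 279 CPM against 168, 209 and 222, also without overlap (-0.40 ± 0.14, FDR 0.246).

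The last 3 of these genes are shown with the heat shock element that HSF1 is known to bind, searched as GAANNTTCNNGAA or TTCNNGAANNTTC on both strands of the 300-base window, overlapping copies counted. The stretches, from RefSeq (GRCm38.p6), read 5' to 3' on the strand of the gene, with matches in capitals, and lie at chr9:18292255-18292283 (plus strand), chr5:149636287-149636308 (minus) and chr1:55088056-55088084 (minus).
Chordc1: tgcaaccgGAACGTTCGGGAAAATTCctg
Hsph1: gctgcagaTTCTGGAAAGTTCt
Hspd1: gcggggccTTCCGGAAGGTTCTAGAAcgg
The element was found in 0.662% of the 27025 genes with a promoter sequence. It was found in 4 of the 16 heat shock and co-chaperone genes with one (25%), the fourth being Hspe1, and in 3 of the 5 whose change was negative with an unadjusted p under 0.05. Hspe1 overlaps Hspd1 on the opposite strand in the annotation, so 1 element may be counted for both. Ppid had no promoter sequence in the source used. Over the 22 genes of that list 6 had a negative change with an unadjusted p under 0.05 (4.83% of all genes) and 0 a positive one, while the median was -0.10. Without mouse 3 it was 3 of 22, against 2.02% of all genes. The inducible HSP70 genes Hspa1a and Hspa1b were not among the 6, so the shift was not shared by the whole list. In 2 of the 22 every immobilized limb was above every control limb (6.45% of all genes), and in 6 every one was below (6.09%). Fkbp5, an HSP90 co-chaperone also induced by glucocorticoids, measured 78, 92.1 and 80.6 CPM against 46.4, 65.2 and 72.4 (-0.46 ± 0.17, FDR 0.285).

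Of 10 tested genes of linker and core histone variants 1 rose, H1f0. H1f0, the linker histone that accumulates in cells that have left the cell cycle (chr15:79028450-79030504, plus strand), measured 69.9, 49.8 and 54.8 CPM in the control limbs and 129, 110 and 147 in the immobilized limbs. The lowest immobilized limb was above the highest control limb by a wide margin. H1f0 rose by 1.15 ± 0.15 (FDR 0.0043, 0.0202 without mouse 3 and 0.0769 without mouse 4), and the median of the 10 histone variants was 0.0014. In the same list H2afy, the macroH2A1 gene, gave -0.63 ± 0.24 (FDR 0.303). An antisense gene overlaps H1f0 in the annotation.

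Taf15, an RNA-binding protein that also takes part in transcription (chr11:83473086-83506743, plus strand), measured 86.3, 87.3 and 109 CPM in the control limbs and 43.1, 49.1 and 64.7 in the immobilized limbs, and fell by 0.86 ± 0.15. Pnn, the splicing-associated protein pinin (chr12:59066884-59073998, plus strand), measured 145, 131 and 159 CPM against 87.2, 81.4 and 122, and fell by 0.60 ± 0.11. Rbm6, a regulator of splicing (chr9:107773559-107873237, minus strand), measured 99.5, 87.7 and 101 CPM against 61.7, 59.7 and 72.0, and fell by 0.58 ± 0.10. In each the groups did not overlap and the immobilized limb of mouse 6 was the highest of its group. All 3 had an FDR of 0.0428, which was 0.712 without mouse 3 and between 0.204 and 0.283 without mouse 4. Other RNA-binding and splicing proteins, named after their values were seen, had negative values of smaller size and missed the FDR: Ewsr1 gave -0.30 ± 0.13 (FDR 0.383), Luc7l3 -0.42 ± 0.13 (0.196) and Srsf5 -0.39 ± 0.14 (0.252). The RNA-binding proteins induced by cold, Cirbp (0.43 ± 0.20, FDR 0.407) and Rbm3 (0.29 ± 0.18, FDR 0.525), had positive values in 3 of 3 mice.

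In the endosome group 1 gene rose and 1 fell. Rab11fip4, an effector of the recycling GTPase RAB11 (chr11:79591212-79698023, plus strand), measured 22.3, 16.6 and 22.9 CPM in the control limbs and 58.4, 31.7 and 55.3 in the immobilized limbs. No limb of the cast group was below any control, and Rab11fip4 rose by 1.2 ± 0.17 (FDR 0.00895, 0.395 without mouse 3 and 0.0606 without mouse 4). Spg11, spatacsin, a protein of lysosome renewal (chr2:122053520-122118386, minus strand), measured 684, 690 and 608 CPM against 277, 354 and 445, and fell by 0.91 ± 0.15 (FDR 0.0428, 0.712 without mouse 3 and 0.236 without mouse 4). Both overlap genes on the opposite strand, Spg11 the coding gene Eif3j1, and reads of overlapping genes could not be separated here. Of 16 members tested, Rab11fip5 also had a positive change at an unadjusted p under 0.05 (0.56 ± 0.24, FDR 0.35), and the GTPases themselves gave 0.18 ± 0.13 (Rab11a, FDR 0.592) and 0.22 ± 0.14 (Rab11b, FDR 0.541). The remaining gene past the FDR, Gm9531, is annotated as a transcribed processed pseudogene (chr9:81677598-81678677, plus strand), so its counts may be shared with its parent gene and are uncertain. It measured 48.7, 49.5 and 48.2 CPM in the control limbs and 6.38, 17.7 and 27.9 in the immobilized limbs, and fell by 1.65 ± 0.29 (FDR 0.0428, 0.712 without mouse 3 and 0.204 without mouse 4).

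Further genes that missed the FDR are named here because their fitted changes were among the largest of genes with a mean of at least 5 CPM, an unadjusted p under 0.05 and 1 direction in 3 of 3 mice. Crabp2, a carrier of retinoic acid, measured 1.70, 0.243 and 0.695 CPM in the control limbs and 49.9, 3.85 and 2.30 in the immobilized limbs (3.73 ± 0.85, FDR 0.134), the control value of mouse 4 resting on 2 reads. With DESeq2 the adjusted p of Crabp2 was 0.0124. Bcan, the proteoglycan brevican, measured 6.03, 1.58 and 4.17 CPM against 43.5, 11.4 and 25.5 (2.76 ± 0.55, FDR 0.0941). It passed with DESeq2 (adjusted p 0.00327) and with the 6 PWK/PhJ libraries alone (FDR 0.0139). It also passed with the muscle level as a covariate (FDR 0.0374) and with all 48 libraries (FDR 0.0487). When any 1 mouse was left out it missed the FDR. Timp1, an inhibitor of matrix metalloproteinases, measured 40.8, 13 and 33.5 CPM against 433, 148 and 42.9 (2.49 ± 0.68, FDR 0.167). In each of these 3 the groups did not overlap and mouse 3 gave the highest library. The others on the higher side were C1qtnf3, described above, Mfap5, a microfibril protein (2.72 ± 1.22, FDR 0.384), and Slc6a2, the noradrenaline transporter (2.18 ± 0.57, FDR 0.165). The pseudogene Gm12918 was at 0 in the 3 control limbs and at 12.2, 0.308 and 22.6 CPM in the immobilized limbs. Its fitted change was 9.5 (FDR 0.104), and 7.63 with DESeq2 (adjusted p 1.93e-05). The value of mouse 4 rests on few reads, and counts of this gene are uncertain for the reason given for Gm9531.

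On the lower side Ly6g, a surface marker of neutrophils, measured 31.3, 14.6 and 22.4 CPM in the control limbs and 8.70, 8.92 and 5.55 in the immobilized limbs (-1.52 ± 0.57, FDR 0.292). Mgam, the alpha-glucosidase maltase-glucoamylase, measured 25.7, 42.2 and 23.1 CPM against 6.19, 14.8 and 13.5 (-1.41 ± 0.48, FDR 0.241). The groups of both did not overlap. Tac2, which encodes the peptide neurokinin B, gave -1.62 ± 0.75 (FDR 0.393) and the immunoglobulin segment Igkv2-137 gave -1.84 ± 0.53 (FDR 0.181). The remaining 2, Gm28437 (-1.51 ± 0.55, FDR 0.281) and Rpl38-ps2 (-3.42 ± 1.23, FDR 0.318), are pseudogenes, and their counts are uncertain for the reason given for Gm9531.

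Genes of bone resorption gave no call. In the osteoclast list 0 of 16 passed and 1 had an unadjusted p under 0.05, the calcitonin receptor Calcr (-1.05 ± 0.47, FDR 0.382), and the median was 0.16. Over all genes 7.41% were higher and 4.83% lower at that p. The median was -0.08 without mouse 3 and -0.0066 without mouse 4. Without mouse 6 it was 0.45, with 2 of 16 higher at that p (11.2% of all genes). Acp5, tartrate-resistant acid phosphatase, measured 860, 605 and 1191 CPM in the control limbs and 1655, 1600 and 507 in the immobilized limbs (0.41 ± 0.48, FDR 0.759). Ctsk, the collagen-degrading protease cathepsin K, measured 591, 343 and 1008 CPM against 2334, 1812 and 548 (1.25 ± 0.61, FDR 0.42). Both were higher in the cast limb of mice 3 and 4 and lower in that of mouse 6, so the groups overlapped. Without mouse 6 Ctsk gave 2.17 (FDR 0.0539) and Acp5 1.15 (FDR 0.169). Among 12 regulators of osteoclasts 0 had an unadjusted p under 0.05, and the cytokine RANKL, Tnfsf11, gave 0.71 ± 0.39 (FDR 0.485) and its decoy receptor Tnfrsf11b 0.44 ± 0.71 (FDR 0.831). The median of these regulators was 0.42. Without mouse 6 it was 0.78, with 4 of 12 higher at that p (11.2% of all genes).

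The Wnt pathway, which drives bone formation, had 6 of 24 members with a positive change at an unadjusted p under 0.05, 0 past the FDR, and a median of 0.58. Over all genes 7.41% had such a change. The count was 3 of 24 without mouse 4 (4.82% of all genes) and 13 of 24 without mouse 6 (11.2%), and without mouse 3 the median was 0.29. Nkd2, a feedback inhibitor, measured 18.4, 11.1 and 14.2 CPM in the control limbs and 57.4, 24.2 and 31.8 in the immobilized limbs (1.31 ± 0.35, FDR 0.167). Notum, which removes the lipid of Wnt proteins, gave 1.27 ± 0.39 (FDR 0.201), the secreted inhibitor Sfrp2 1.48 ± 0.50 (FDR 0.241), the co-receptor Lrp5 0.57 ± 0.20 (FDR 0.254) and the ligand Wnt4 0.71 ± 0.25 (FDR 0.261). The growth plate list had a larger median, 1.33, with 3 of 21 members at an unadjusted p under 0.05, and its mice went apart at 1.75, 1.08 and -0.63. Without mouse 3 that median was 0.37 with 1 of 21 members, without mouse 4 it was 1.16 with 0, and without mouse 6 it was 2.31 with 5. Col11a1, a fibrillar collagen chain of cartilage and bone, measured 456, 139 and 360 CPM against 1064, 532 and 1147 (1.61 ± 0.65, FDR 0.331), whereas Col10a1, the collagen of hypertrophic cartilage, was at 33.7 CPM in the immobilized limb of mouse 3 and at 0.271 to 1.69 in the other 5 limbs.

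**Figure D3:**
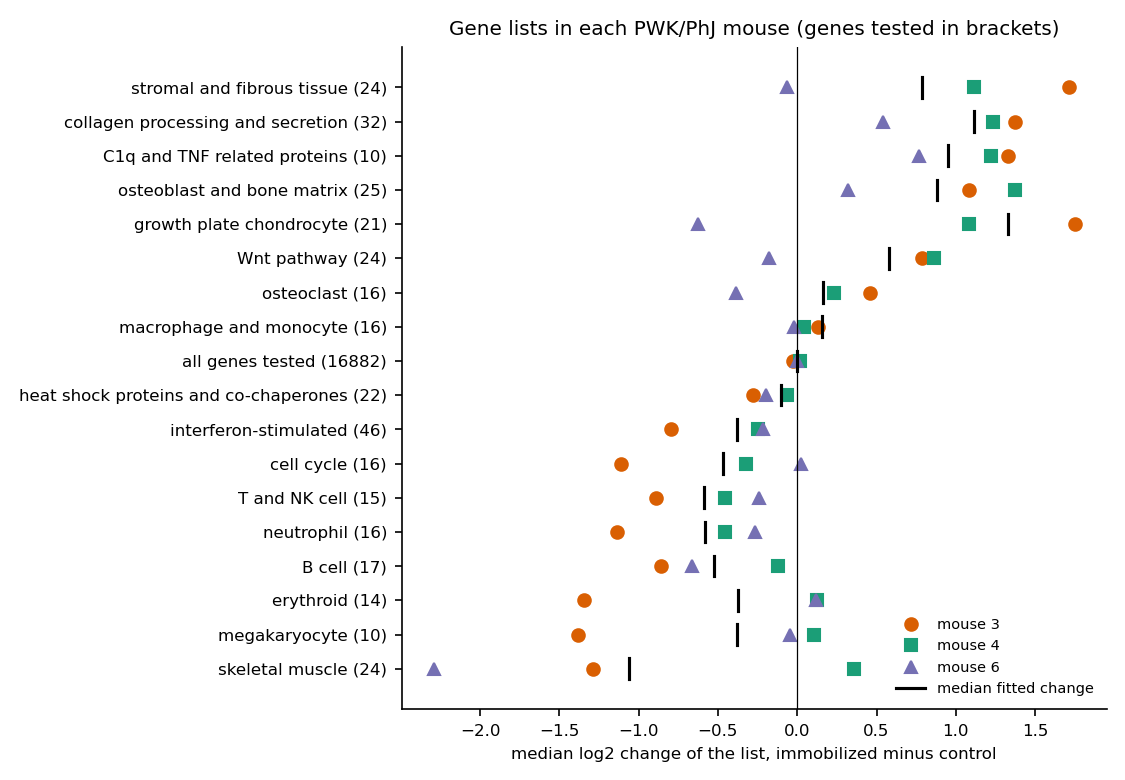
For each gene list, with its number of genes tested, the points give the median log2 difference between the limbs of each mouse and the bar the median fitted change. Collagen processing lies above 0 and interferon-stimulated genes below 0 in all 3 mice, whereas growth plate, stromal and Wnt genes of mouse 6 lie below 0.

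Markers of muscle and marrow also differed between the limbs, and not in the same way in each mouse. The summed level of 24 skeletal muscle markers was 3963, 1816 and 1659 CPM in the control limbs and 1359, 2754 and 356 in the immobilized limbs, with a median change of -1.06 and 0 members at an unadjusted p under 0.05. The cast limb of mouse 4 was above its control and those of mice 3 and 6 were below, as Acta1, skeletal actin, shows with 369, 177 and 116 CPM against 132, 314 and 42.5 (-0.73 ± 1.39, FDR 0.859). With the muscle level as a covariate all 15 genes kept their call, among 74 in all. The erythroid sum was 94728, 51431 and 80404 CPM in the control limbs and 36874, 70139 and 57529 in the immobilized limbs, and the megakaryocyte sum 2183, 1635 and 2017 against 890, 1680 and 1823. The low values of mouse 3 in both lists stand beside its high sum of stromal markers, 25623 CPM against 3996 to 9318 in the other 5 limbs. Median changes were 0.40 for adipocytes, 0.16 for endothelium and 0.15 for macrophages and monocytes, with 0 genes past the FDR in each. The medians of adipocytes and endothelium turned to -0.28 and -0.27 without mouse 4. Without mouse 6 that of adipocytes was 1.07, with 7 of 17 members positive at an unadjusted p under 0.05 (11.2% of all genes). The share of these differences in the 15 calls was not tested beyond the muscle covariate.

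**Figure D4:**
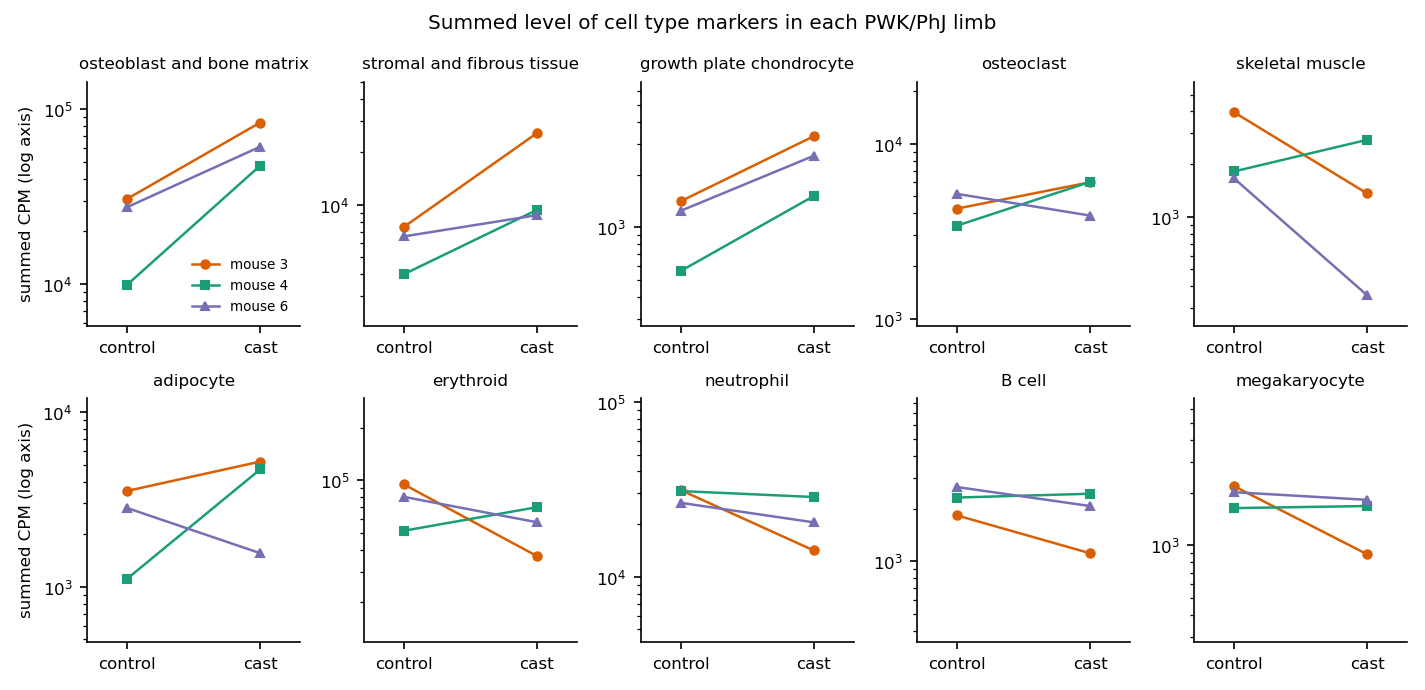
Summed CPM of the markers of 10 cell types or tissues is drawn on log axes for the control and the immobilized (cast) limb, with 1 line per mouse. Bone, stromal and growth plate sums are higher in the cast limb of all 3 mice, the neutrophil sum is lower in all 3, and the muscle sum is lower in mice 3 and 6 and higher in mouse 4. A sum is weighted to abundant genes: in mouse 6 the median log2 differences of the growth plate and stromal lists were -0.63 and -0.07.

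Whether the response differed from that of other strains was tested gene by gene. Against the mean of the other 7 strains 0 genes passed the FDR with edgeR, with 1251 at an unadjusted p under 0.05 (7.41%), and DESeq2 called 9. With A/J, which had 1 usable pair, left out of that mean 0 genes passed with edgeR. Against CAST/EiJ 0 passed with edgeR, with 1276 at an unadjusted p under 0.05 (7.56%), and DESeq2 called 13. Against WSB/EiJ 0 passed with edgeR, with 1471 at an unadjusted p under 0.05 (8.71%), and DESeq2 called 6. No gene can therefore be called particular to PWK/PhJ by the main test. The lowest FDR against the other 7 strains was 0.302, for Ppid and Spg11.

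For the genes past the FDR in PWK/PhJ the other strains gave the following. Spg11 changed by -0.91 ± 0.15 in PWK/PhJ and by -0.18 to 0.52 in the other 7, a difference of -0.91 ± 0.17. Ppid gave -0.92 ± 0.11 in PWK/PhJ, -0.82 ± 0.11 in CAST/EiJ, -0.41 ± 0.11 in WSB/EiJ and a mean of -0.27 over the other 7, a difference of -0.65 ± 0.12. A/J entered that mean with the same weight as each other strain and gave 0.27 ± 0.19 for Ppid from 1 usable pair. Spg11 and Ppid, with Gm9531 and Rbm6, were among the 9 that DESeq2 called. H1f0 was positive in all 8 strains, from 0.14 in A/J to 1.70 in CAST/EiJ, and Pnn was negative in all 8, from -0.60 in PWK/PhJ to -0.04 in A/J, where 1 pair of limbs was usable. The 6 genes that rose in PWK/PhJ had larger fitted changes in CAST/EiJ, the differences being between -1.71 and -0.10 with an FDR of 0.509 or more. Against WSB/EiJ the same 6 genes differed by 0.60 to 1.64, with an FDR of 0.449 or more.

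**Figure D5:**
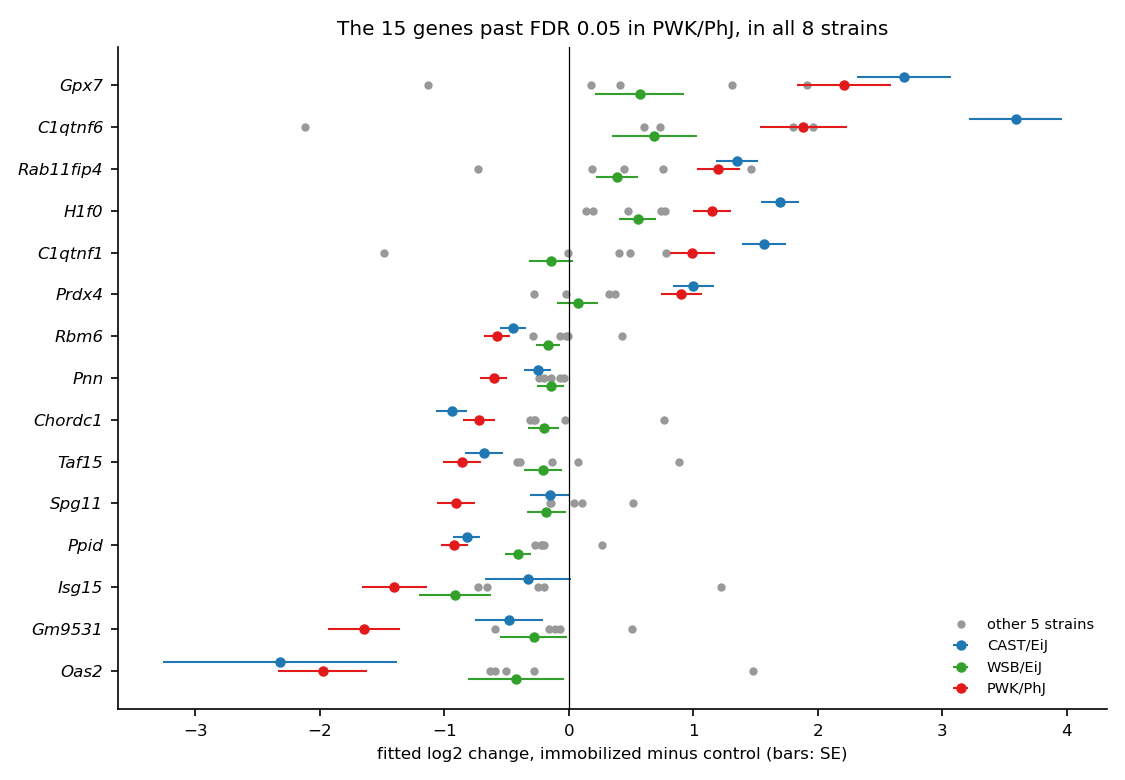
Fitted log2 changes of the 15 genes, immobilized minus control, are drawn for PWK/PhJ (red), CAST/EiJ (blue) and WSB/EiJ (green) with bars of 1 SE, and for the 5 other strains as grey points. The red points of Spg11, Gm9531, Isg15, Ppid, Pnn, Rbm6 and Taf15 lie furthest below 0, and for the genes that rose the blue points lie at higher values than the red.

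Seen by list, collagen processing had a median change of 1.12 in PWK/PhJ, 1.97 in CAST/EiJ and 0.05 in WSB/EiJ. Of its 32 members 8 were lower than in CAST/EiJ (4.1% of all genes) and 10 higher than in WSB/EiJ (5.32% of all genes), each at an unadjusted p under 0.05. The osteoblast list gave 0.88, 2.33 and -0.25, with 9 of 25 members lower than in CAST/EiJ and 3 higher than in WSB/EiJ. In both lists the PWK/PhJ median lay between those of the other two. For the interferon-stimulated list the medians were -0.38 in PWK/PhJ, -0.24 in CAST/EiJ and -0.14 in WSB/EiJ. Of its 46 members 3 were lower and 1 higher (3.46% of all genes) than in CAST/EiJ and 7 lower than in WSB/EiJ (3.39% of all genes), and against the mean of the other 7 strains 5 were lower (3.68%), again at an unadjusted p under 0.05.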

How the data were processed

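The authors deposited whole-number read counts per gene, 1 column per library, not normalized. Per the submitters' processing notes, featureCounts, DESeq2 and the mm10 build were used. The aligner, the annotation, the strand setting and all versions were not stated in the labels. The libraries were stranded poly(A) libraries per the labels' protocols. Reads of PWK/PhJ were assigned to a genome derived from C57BL/6J.

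From the 32544 gene rows 16882 passed edgeR's filterByExpr. edgeR 4.0.16 in R 4.3.3 (TMM scaling, robust quasi-likelihood test, Benjamini-Hochberg over all genes tested, threshold 0.05) fitted the mouse as a block and the limb effect of every strain to 44 libraries of 22 mice. A/J mice 2 and 5 were left out because their control libraries held 2335 and 50 counts. CPM used TMM-scaled library sizes. DESeq2 1.42.0 was an alternative. Pairing comes from the series design. Within PWK/PhJ the deviations of both limbs of a mouse correlated at 0.147, 0.089 and -0.121 for mice 3, 4 and 6.

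The genes named were all 15 past the FDR, the 8 largest rises and 8 largest falls among genes with a mean of at least 5 CPM, an unadjusted p under 0.05 and 1 direction in 3 of 3 mice, and up to 5 members of each list by lowest p with members that define it. A few others were named after their values were seen. Members and the 33 lists were chosen with earlier results of these data known. Coordinates are from GENCODE M21 and promoters from RefSeq, both GRCm38. Scripts were tested on simulated data. Alternatives changed the scaling, tool, filter, libraries, block and a muscle covariate, and left out each mouse. Within the PWK/PhJ control limbs, and within its immobilized limbs, no 2 libraries agreed within sampling noise. Other libraries were not compared in this way. Names in 27 rows read as dates and were left so.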

Additional observations from a re-analysis of the deposited data

How the results depend on the processing

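The count of 15 genes became 152 with DESeq2, 9 with no replicate block, 74 with a skeletal muscle covariate beside the replicate block and 9 with the 6 PWK/PhJ libraries alone, of which 15, 6, 15 and 2 were among the 15. It was 16 with RLE size factors, 12 without the filter on low counts and 13 with all 48 libraries. Leaving out 1 mouse gave 0 to 212 genes. Against the mean of the other 7 strains the count of 0 became 9 with DESeq2 and 0 to 3 when a mouse was left out. Against CAST/EiJ it became 13 with DESeq2 and stayed at 0 when a mouse was left out. Against WSB/EiJ it became 6 with DESeq2 and 0 to 6 when a mouse was left out. In the strain comparisons the other settings, removal of the block included, gave 0. Changes of sign were found for genes that missed the FDR: over the fits that left out 1 mouse, Acp5 went from -0.144 to 1.15 and Rab11a from -0.0071 to 0.284 (lowest without mouse 4), and Col10a1 from -0.492 to 3.76, Runx2 from -0.122 to 0.233 and Tnfrsf11b from -0.438 to 1.02 (lowest without mouse 3). With the muscle covariate Acta1 gave 0.623. The cause was not tested. With 3 mice, and 5253408 to 7631576 counts per library, genes under about 1 CPM rest on few reads.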

Other observations

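In the gene lists described here 0 members passed the FDR in the PWK/PhJ tibia. Immediate early genes had a positive change at an unadjusted p under 0.05 in 5 of 18 members and a median of 0.36, which was 1.09, 0.42 and -0.23 within mice 3, 4 and 6. Over all genes 7.41% had such a change, and without mouse 3 it was 0 of the 18, with a median of 0.013. Jund, a subunit of the AP-1 transcription factor, measured 27.2, 19.0 and 23.5 CPM in the control limbs and 50.9, 33.1 and 28.6 in the immobilized limbs, without overlap (0.66 ± 0.21, FDR 0.22). Genes of mechanosensing and YAP targets had 3 of 17 such members and a median of 0.53, among them the gap junction protein Gja1 at 277, 143 and 231 CPM against 495, 323 and 352 (0.87 ± 0.33, FDR 0.293). In the IGF system 3 of 17 members had a positive and 1 a negative change at that level. Without mouse 3 the count of positive members was 1 for mechanosensing and 0 for the IGF system (2.82% of all genes), and without mouse 6 it was 7 and 6 (11.2%). Igf1 measured 53.8, 43.6 and 50.1 CPM in the control limbs and 253, 83.2 and 47.5 in the immobilized limbs (1.04 ± 0.27, FDR 0.167), while its receptor Igf1r gave -0.58 ± 0.21 (FDR 0.265). In both genes mouse 6 went the other way from mice 3 and 4.

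The glucocorticoid response list had 3 members higher and 1 lower of 14 at an unadjusted p under 0.05 (median 0.27), and the circadian clock list 2 higher of 16 (median 0.29). At that p 7.41% of all genes were higher and 4.83% lower. Without mouse 3 both lists had 0 such members (2.82% of all genes higher and 2.02% lower). Without mouse 6 there were 6 and 3 on the higher side (11.2% of all genes). Medians were -0.07 for 20 genes of the unfolded protein response, -0.03 for 21 of oxidative phosphorylation and -0.04 for 18 of muscle atrophy and denervation. In the last list Cdkn1a, the cell cycle inhibitor p21, measured 30.5, 16.7 and 27.4 CPM in the control limbs and 80.7, 49.1 and 48.8 in the immobilized limbs, without overlap (1.26 ± 0.34, FDR 0.167). The 16 cell cycle genes had a median of -0.47, with 0 at an unadjusted p under 0.05. Top2a, a topoisomerase of dividing cells, measured 667, 849 and 676 CPM in the control limbs and 291, 487 and 746 in the immobilized limbs (-0.62 ± 0.31, FDR 0.429).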
